A study of Mus musculus with 15 samples.

Results

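The tissue at an L-NIO injection in mouse corpus callosum was compared with the tissue on the opposite side of the same tract. L-NIO blocks the nitric oxide synthase of endothelium and is injected to narrow vessels, which makes a small white matter stroke. The comparison used the 6 libraries labelled for these sites, 3 from the injection site (LNIO_Ipsil) and 3 from the contralateral site (LNIO_Contra), of 15 libraries in all. Of 33321 genes in the count table, 16795 passed a filter on low counts and were tested. The labels give the tissue as brain from corpus callosum, taken at day 4 after injury for the L-NIO libraries, and name no strain, sex or age. The other groups enter here through the shared estimate of spread and as levels set beside the L-NIO sides. They are the lysophosphatidylcholine injection site and its contralateral site (LPC_Ipsil, LPC_Contra) and the saline site of sham-operated mice (Sham_Ipsil), with 3 libraries each. The LPC libraries are also of day 4, and no day was recorded for the sham libraries. Separate mice are not stated for the 3 libraries of any group, so every p-value here rests on the spread among these libraries, and that spread may be technical only.

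The corpus callosum carries the axons that join the hemispheres, wrapped in myelin by oligodendrocytes. When its blood supply fails, microglia, the resident macrophages of the brain, take up debris through lipid-sensing, complement and Fc receptors, and astrocytes switch on intermediate filament and secreted proteins. Interferon-stimulated genes are a separate program, in which transcription factors activated by interferon bind short purine-rich elements in promoters.

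The LNIO_Ipsil libraries held 18068146, 17984891 and 19048420 counts and the LNIO_Contra libraries 17947514, 20915736 and 16513469. Levels are in CPM: each library's counts were divided by its total and its edgeR TMM factor and put on a common scale. Myelin genes were abundant on both sides. Mbp, which encodes myelin basic protein, had 5158, 7107 and 5421 CPM in LNIO_Ipsil, against 7424, 7179.9 and 7555 CPM in LNIO_Contra. Mitochondrially encoded genes took 15.9%, 9.66% and 10.4% of counts in LNIO_Ipsil and 13.7%, 8.74% and 11.2% in LNIO_Contra, so the libraries numbered 1 were the high ones on both sides. Outside these groups, LPC_Ipsil replicate 3 and LPC_Contra replicate 2 stood apart from the libraries that share their labels. For the damage-associated microglia list below, the median log2 level relative to the sham mean was 4.26, 3.501 and 0.204 in LPC_Ipsil and 0.0426, 0.862 and -0.0908 in LPC_Contra.

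Genes of microglia, chemokines, Fc receptors and the interferon response stood higher at the injection site in every LNIO_Ipsil library, with list medians of 1.08 to 3.13 on the log2 scale, while genes of myelin and neurons stood a little lower (-0.25 and -0.23) and those of striatum lower still (-0.80). How many genes passed a test differed widely between fits. In the 15-library edgeR quasi-likelihood fit without pairing, 0 genes passed a Benjamini-Hochberg adjusted p of 0.05, and the smallest adjusted p was 0.186. At an unadjusted p under 0.05 that fit had 1021 genes, 811 higher (4.83% of tested genes) and 210 lower (1.25%), and without TMM factors it had 932 higher and 88 lower. Over all tested genes the median log2 fold change was -0.02, with 7735 genes positive and 9059 negative, the background for the sign counts of lists below. LNIO_Ipsil stood above LNIO_Contra with no overlap between the libraries in 1328 genes (7.91%) and below it in 880 genes (5.24%).

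Equal library numbers deviated together on the 2 sides: the correlations across genes of the deviations from the group means were 0.60, 0.36 and 0.25 for numbers 1, 2 and 3. For unequal numbers, LNIO_Ipsil library 3 with LNIO_Contra library 2 had 0.195, and the others were negative. With the number as a block in the 15-library edgeR fit, 20 genes passed, all higher (0.119% of tested genes), and leaving out the pair numbered 1, 2 or 3 left 0 in each case. That fit also holds the LPC libraries, whose equal numbers correlated at -0.04, 0.16 and 0.33. With the 6 L-NIO libraries alone, edgeR called 354 genes higher (2.11%) and 1 lower (0.00595%) without the block, and 598 higher (3.56%) and 87 lower (0.518%) with it. The fit of 9 L-NIO and sham libraries called 393 genes higher (2.34%) and 0 lower. Fits added after the data were seen left out LPC_Ipsil replicate 3 and LPC_Contra replicate 2, which gave 394 genes higher (2.35%) and 0 lower. With the block added they gave 431 higher (2.57%) and 3 lower (0.0179%), and the block in the 9 libraries gave 424 higher (2.52%) and 3 lower (0.0179%). DESeq2 on all 15 libraries called 178 higher (1.08%) and 2 lower (0.0122%). Of the 20 genes of the blocked 15-library fit, 20 were also called by the blocked 6-library fit, 16 by the unblocked 6-library fit and 18 by DESeq2. Below, "paired 15-library fit" and "paired 6-library fit" name the 2 edgeR fits with the block.

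**Figure D1:**
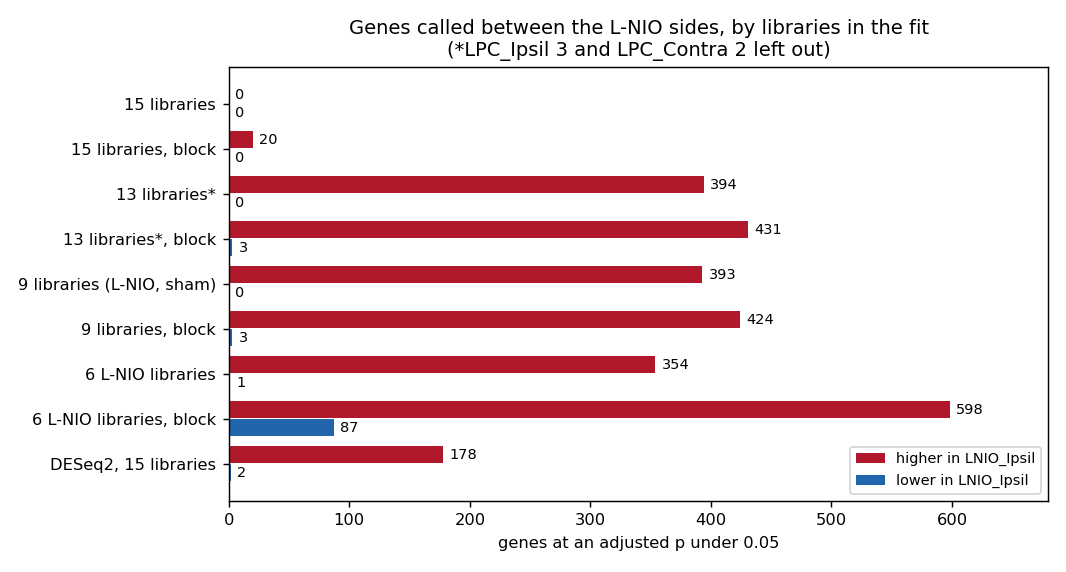
Genes at an adjusted p under 0.05 between LNIO_Ipsil and LNIO_Contra, higher (red) and lower (blue), by the libraries in the fit and whether library number was a block. Bars start at 0 for the 15-library fit without a block and reach 598 higher and 87 lower for the 6 L-NIO libraries with the block.

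**Figure D2:**
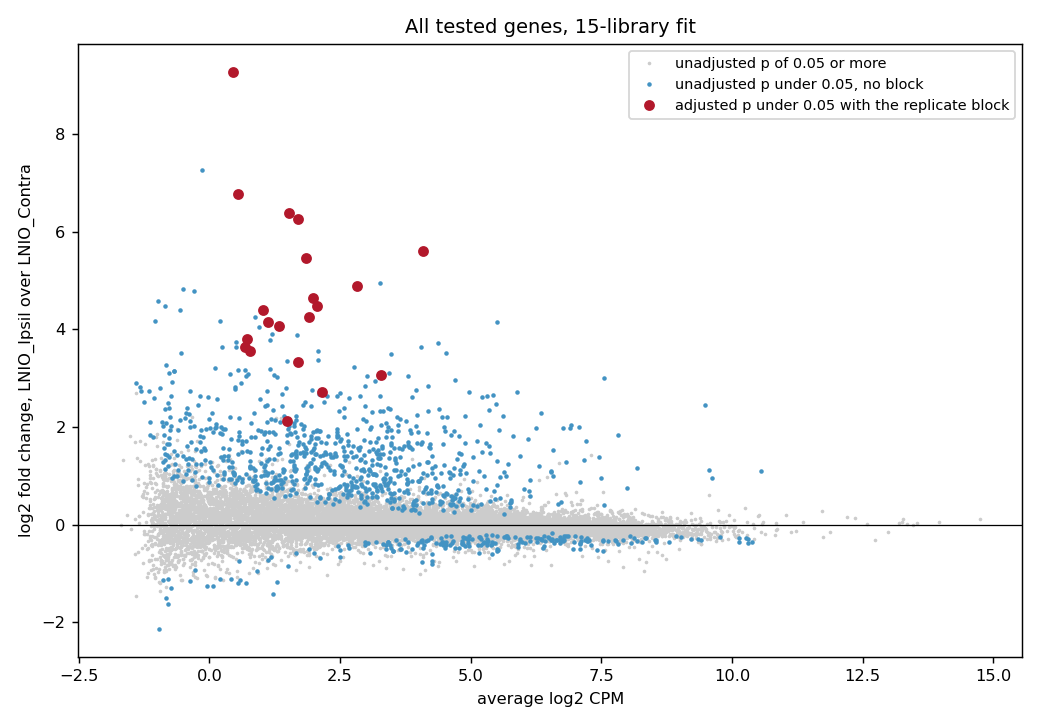
Each point is 1 of the 16795 tested genes, with average log2 CPM across and the log2 fold change of LNIO_Ipsil over LNIO_Contra up. The 20 genes that passed with the block in the 15-library fit (red) all lie above 0, and genes at an unadjusted p under 0.05 (blue) are more numerous above 0 (811) than below it (210).

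The 20 genes of the paired 15-library fit all rose at the injection site. They included chemokines, phagocyte receptors, proteases and interferon-stimulated genes. They were named because they passed, after their values were seen, where the naming rule did not also name them. Ccl3, a chemokine that draws monocytes and lymphocytes, had 6.02, 5.51 and 6.65 CPM in LNIO_Ipsil, against 0, 0.0946 and 0.122 CPM in LNIO_Contra, with an edgeR adjusted p of 0.0261. The 3 injection-site libraries lay close together and far above every contralateral one. Ccl12, a monocyte chemokine of rodents, had 2.17, 3.67 and 5.06 CPM in LNIO_Ipsil, against 0.115, 0.284 and 0.366 CPM in LNIO_Contra (edgeR adjusted p = 0.0189). C3ar1, the receptor for the complement fragment C3a, had 7.18, 19.4 and 19.2 CPM in LNIO_Ipsil, against 1.15, 2.32 and 2.01 CPM in LNIO_Contra (edgeR adjusted p = 0.0189). In both genes the lowest injection-site library was number 1, and it was still above all 3 contralateral libraries.

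Several of the 20 encode surface receptors and enzymes of phagocytes. Siglec1, a sialic acid receptor of macrophages, had 2.34, 12.8 and 7.49 CPM in LNIO_Ipsil, against 0.173, 0.142 and 0.183 CPM in LNIO_Contra (edgeR adjusted p = 0.0235). Msr1, a scavenger receptor for modified lipoproteins, had 2.39, 4.62 and 2.73 CPM in LNIO_Ipsil, against 0.115, 0.0946 and 0.244 CPM in LNIO_Contra (edgeR adjusted p = 0.0395). Neither gene's groups overlapped. Cst7, which encodes cystatin F, an inhibitor of lysosomal proteases, had 7.91, 30.8 and 25.99 CPM in LNIO_Ipsil, against 0.806, 0.331 and 0.183 CPM in LNIO_Contra (edgeR adjusted p = 0.0235). Library 1 was the low one at the injection site and the high one on the other side, and the groups did not overlap. Casp1, the protease that matures interleukin 1 beta, had 4.85, 4.95 and 3.62 CPM in LNIO_Ipsil, against 0.864, 1.04 and 1.16 CPM in LNIO_Contra (edgeR adjusted p = 0.0261), a narrow spread on each side. Ms4a6d, a membrane protein of macrophages, and Cd22, an inhibitory sialic acid receptor, had log2 fold changes of 2.72 ± 0.63 (SE) and 3.55 ± 0.85 (SE) in the 15-library fit. Lilrb4a and Lilrb4b, inhibitory receptors with near-identical sequences, had 4.47 and 4.14. Reads from that pair may be split between them, and the Lilrb4a value is from the second of 2 entries with that symbol.

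Some of the 20 genes had almost no counts on the contralateral side, where a fitted fold change depends on the count added to avoid zeros. Lcn2, a secreted iron-binding protein of reactive astrocytes and neutrophils, had 1.11, 9.34 and 2.48 CPM in LNIO_Ipsil, against 0, 0 and 0 CPM in LNIO_Contra. It had 238 counts in LNIO_Ipsil and 0 in LNIO_Contra, so it was at least 77.7-fold higher against a floor of 3 counts over the group. Mmp12, macrophage elastase, had 153 counts in LNIO_Ipsil and 1 in LNIO_Contra, a ratio of 149.8 with a 95% exact counting interval of 26.5 to 5954. Ch25h, which makes 25-hydroxycholesterol, had 200 and 2 counts in those groups, a ratio of 97.9 with an interval of 26.7 to 814. Such intervals cover counting error only. Ctse, an aspartic protease, had 0.501, 17.9 and 12.2 CPM in LNIO_Ipsil, against 0.0576, 0.615 and 0.305 CPM in LNIO_Contra. Its groups overlapped, since library 1 of LNIO_Ipsil was below library 2 of LNIO_Contra, and within each number the injection site was the higher. Pdcd1, which encodes the receptor PD-1, had 0.891, 7.17 and 3.27 CPM in LNIO_Ipsil, against 0, 0.284 and 0.366 CPM in LNIO_Contra, and injection-site library 2 was the highest.

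**Figure D3:**
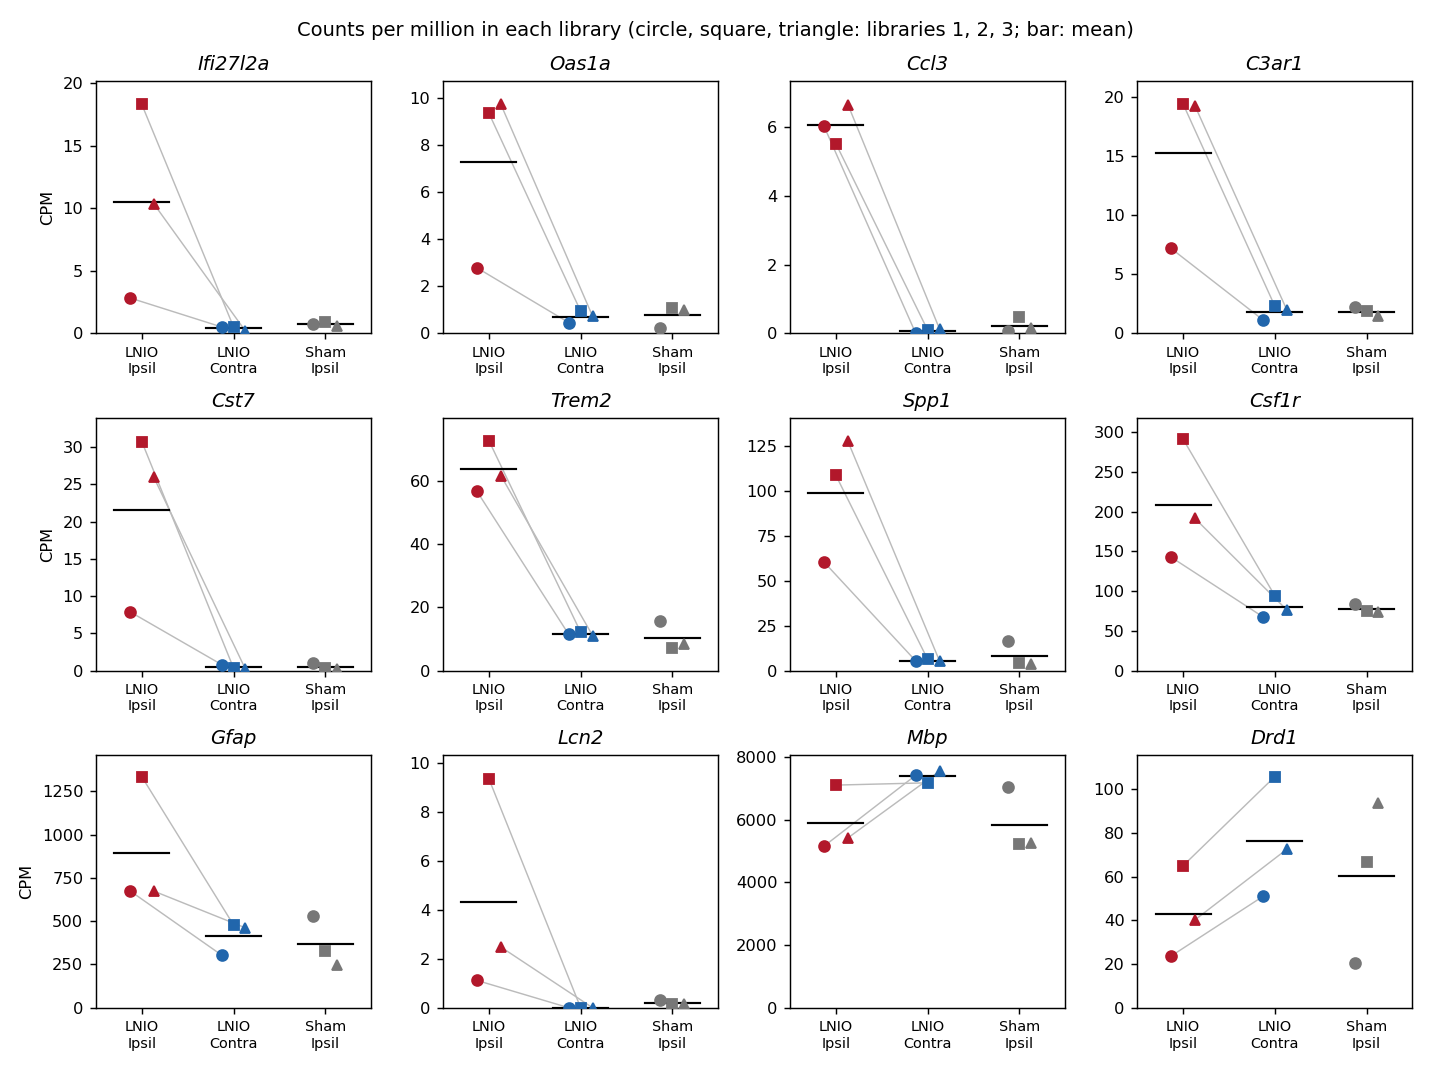
CPM on linear axes from 0 for 12 genes in the 3 libraries of LNIO_Ipsil (red), LNIO_Contra (blue) and Sham_Ipsil (grey), with circle, square and triangle for libraries 1, 2 and 3, bars at the mean, and grey lines joining equal numbers. For the 10 immune and astrocyte genes all LNIO_Ipsil points lie above all LNIO_Contra points, while for Mbp and Drd1 they lie lower or overlap.

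The list of resting microglia genes, which also holds Trem2, stood higher at the injection site. In the homeostatic microglia list, 14 of 15 genes were tested and all had positive log2 differences, with a median of 1.08 against -0.02 for all tested genes. The injection-site libraries lay above the contralateral ones without overlap in 13 of them. The paired 15-library fit called 0 of the 14 and the paired 6-library fit 13. In bulk tissue, more cells of a type and more RNA per cell cannot be told apart. Csf1r, the receptor that keeps microglia alive, had 143, 291 and 191 CPM in LNIO_Ipsil, against 67.7, 94.2 and 76.4 CPM in LNIO_Contra. Library 2 was the highest on both sides, and the lowest injection-site level exceeded the highest contralateral one. P2ry12, the ADP receptor of resting microglia, had 125, 94.9 and 148 CPM in LNIO_Ipsil, against 65.1, 58.1 and 61.9 CPM in LNIO_Contra, also without overlap. Siglech had a log2 fold change of 1.03 ± 0.30 (SE) and Tmem119, a marker particular to resident microglia, 0.83 ± 0.45 (SE). Aif1, which encodes the microglial protein IBA1, had 8.08, 15.02 and 11.9 CPM in LNIO_Ipsil, against 4.203, 6.19 and 6.52 CPM in LNIO_Contra, and its groups did not overlap.

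Genes that microglia switch on around damage stood higher too. All 22 genes of the damage-associated list were tested and all were positive, with a median log2 difference of 2.53 and medians of 2.13, 2.76 and 2.34 for libraries numbered 1, 2 and 3. No overlap was seen in 19 of them. The paired 15-library fit called 2, Cst7 and Ch25h, and the paired 6-library fit 20. Trem2, the lipid receptor that the switch depends on in mice, was counted in the homeostatic list. It had 56.7, 72.7 and 61.7 CPM in LNIO_Ipsil, against 11.5, 12.2 and 11.1 CPM in LNIO_Contra. All 3 injection-site libraries stood at about the same level, well above the others. Spp1, which encodes osteopontin, had 60.5, 109 and 128 CPM in LNIO_Ipsil, against 5.35, 6.19 and 5.24 CPM in LNIO_Contra, with library 1 the lowest at the injection site. Clec7a, a receptor for fungal glucans used as a marker of this state, had 10.4, 16.7 and 23.6 CPM in LNIO_Ipsil, against 0.288, 0.804 and 0.488 CPM in LNIO_Contra. Both genes missed the paired 15-library threshold narrowly (edgeR adjusted p = 0.0567 for Spp1 and 0.0543 for Clec7a). Apoe, the lipid carrier made by astrocytes and by activated microglia, had 2256, 2889 and 1265 CPM in LNIO_Ipsil, against 1075, 945 and 966 CPM in LNIO_Contra, higher by a log2 fold change of 1.10 ± 0.41 (SE). Cd68, a lysosomal protein of phagocytes, had 39.99, 70.2 and 50.3 CPM in LNIO_Ipsil, against 7.37, 10.8 and 8.17 CPM in LNIO_Contra.

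Receptors for antibodies also stood higher. Of 6 Fc receptor genes tested, the median log2 difference was 2.73, 5 did not overlap and 5 passed the paired 6-library fit. Fcgr4, an activating receptor, had 2.12, 4.23 and 3.92 CPM in LNIO_Ipsil, against 0.0576, 0.426 and 0.305 CPM in LNIO_Contra and rose in the paired 15-library fit (edgeR adjusted p = 0.0395). Fcer1g, the shared signalling chain, had 25.95, 42.5 and 29.1 CPM in LNIO_Ipsil, against 4.55, 4.303 and 4.75 CPM in LNIO_Contra. Fcgr1, the high-affinity IgG receptor, had 15.04, 37.3 and 34.7 CPM in LNIO_Ipsil, against 3.17, 5.91 and 5.12 CPM in LNIO_Contra, and Fcgr2b, the inhibitory receptor, had 12.1, 11.96 and 19.6 CPM in LNIO_Ipsil, against 1.497, 1.84 and 2.38 CPM in LNIO_Contra. In each of them library 1 was the lowest or next to lowest at the injection site, and it was still above every contralateral library.

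Complement genes followed, with 14 of 15 tested, a median log2 difference of 1.62, 8 without overlap and 8 past the paired 6-library threshold. C1qc, a chain of the C1q complex that tags debris and synapses, had 118, 183 and 108 CPM in LNIO_Ipsil, against 27.004, 31.8 and 24.8 CPM in LNIO_Contra. Itgam and Itgb2 encode the 2 chains of complement receptor 3. Itgam had 34.03, 28.9 and 25.05 CPM in LNIO_Ipsil, against 7.43, 7.14 and 7.56 CPM in LNIO_Contra, and Itgb2 had 22.9, 24.8 and 30.6 CPM in LNIO_Ipsil, against 4.78, 6.01 and 4.39 CPM in LNIO_Contra. Each side's libraries were close together for both chains. Among pattern receptors, 11 of 12 listed genes were tested, with a median of 1.14 and 7 past the paired 6-library threshold. Tlr2, which senses lipoproteins, had 6.46, 13.2 and 11.95 CPM in LNIO_Ipsil, against 0.921, 2.36 and 1.04 CPM in LNIO_Contra, and Tlr7, which senses single-stranded RNA, had 7.797, 17.4 and 18.4 CPM in LNIO_Ipsil, against 2.42, 5.63 and 4.51 CPM in LNIO_Contra. Library 2 of LNIO_Contra was the highest of its side for both.

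Chemokines had the highest median of the 43 lists, 3.13 over 10 of 14 genes, with medians of 2.34, 2.95 and 2.90 for numbers 1, 2 and 3. The median and its rank cover only the members that passed the filter on low counts. Low contralateral counts, as for Ccl3 and Ccl12, did not keep a gene out, since libraries of any group counted. The injection site was higher without overlap in 8 of the 10, the paired 15-library fit called 2, both higher, and the paired 6-library fit 7. Cx3cl1, a chemokine made by neurons whose receptor is on microglia, went the other way, at 284, 348 and 297 CPM in LNIO_Ipsil, against 391, 394 and 364 CPM in LNIO_Contra, lower without overlap and called in neither paired fit. Cx3cl1 was the most abundant of the list, and the summed level of all 14 genes was 387, 453 and 417 CPM in LNIO_Ipsil and 441, 436 and 411 CPM in LNIO_Contra, which overlapped. Ccl6, expressed by myeloid cells, had 12.03, 23.2 and 36.8 CPM in LNIO_Ipsil, against 2.19, 1.84 and 1.402 CPM in LNIO_Contra, a log2 fold change of 3.72 ± 0.95 (SE). Cxcl10, an interferon-induced ligand of CXCR3, had 2.39, 2.002 and 2.23 CPM in LNIO_Ipsil, against 0.403, 0.142 and 0.183 CPM in LNIO_Contra. Its sham levels were 0.478, 0.473 and 2.51 CPM, so 1 sham library was as high as the injection site. Ccl2, the classical monocyte chemokine, did not pass the filter and had 0.446, 0.389 and 0.942 CPM in LNIO_Ipsil, against 0.115, 0.142 and 0.0610 CPM in LNIO_Contra. Among cytokines and their receptors, 14 of 17 genes were tested, with a median of 1.13 and 10 past the paired 6-library threshold. Tgfbr2, a TGF-beta receptor, had 33.03, 48.8 and 38.3 CPM in LNIO_Ipsil, against 15.1, 14.2 and 13.7 CPM in LNIO_Contra. Il10ra, the interleukin 10 receptor, had 16.4, 26.1 and 21.9 CPM in LNIO_Ipsil, against 10.4, 10.1 and 6.77 CPM in LNIO_Contra. Neither gene's groups overlapped.

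Lysosomal and phagocytic genes had a median of 1.58 over 24 of 25, with 18 without overlap and 19 past the paired 6-library threshold. Ctsc, a protease that activates granule enzymes, had 25.2, 29.4 and 42.01 CPM in LNIO_Ipsil, against 7.95, 10.2 and 7.31 CPM in LNIO_Contra, and Cybb, the catalytic subunit of the phagocyte NADPH oxidase, had 3.01, 12.5 and 6.1001 CPM in LNIO_Ipsil, against 0.461, 0.804 and 0.792 CPM in LNIO_Contra. Lipid efflux and storage genes were mixed: the median was 0.47 over 15 genes and 7 did not overlap. Abca1, the cholesterol exporter, had 113, 127 and 113 CPM in LNIO_Ipsil, against 57.1, 66.2 and 44.7 CPM in LNIO_Contra. Plin2, which coats lipid droplets, had 12.6, 19.96 and 12.9 CPM in LNIO_Ipsil, against 5.297, 6.01 and 7.802 CPM in LNIO_Contra. Apoc1, an apolipoprotein, had 24.3, 19.8 and 8.38 CPM in LNIO_Ipsil, against 3.97, 1.28 and 0.366 CPM in LNIO_Contra, and its order by number was the same on both sides, with 1 the highest and 3 the lowest.

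Since 0 genes passed without pairing, the rule named the 12 genes higher at the injection site with the smallest unadjusted p, and none of the 12 passed that fit (edgeR adjusted p = 0.186 for each). All 12 passed the paired 6-library fit and DESeq2, and 3 of the 12 are in the interferon response list. Ifi27l2a, an interferon-induced protein of mitochondria, had 2.84, 18.3 and 10.4 CPM in LNIO_Ipsil, against 0.518, 0.5201 and 0.183 CPM in LNIO_Contra. Its log2 fold change was 4.64 ± 0.77 (SE), and it rose in the paired 15-library fit (edgeR adjusted p = 0.0373). Injection-site library 1 was the lowest of its side and still above all contralateral libraries. Ifi202b, a DNA-binding protein of the same response, had 3.12, 7.12 and 18.9 CPM in LNIO_Ipsil, against 0.288, 0.709 and 0.488 CPM in LNIO_Contra (edgeR adjusted p = 0.0342 in that fit). Ifi44 had 1.84, 3.73 and 4.91 CPM in LNIO_Ipsil, against 0.921, 0.5201 and 0.488 CPM in LNIO_Contra, and Ifi204, a DNA sensor, had 1.34, 6.06 and 11.9 CPM in LNIO_Ipsil, against 0.518, 0.331 and 0.427 CPM in LNIO_Contra. For Ifi202b, Ifi44 and Ifi204 the injection site was lowest in library 1 and highest in library 3. Sham library 3 exceeded injection-site library 1 for Ifi44 (2.92 CPM) and Ifi204 (1.81 CPM), and no sham library did for Ifi27l2a or Ifi202b. LNIO_Contra stood below sham by log2 fold changes of -1.55 for Ifi44, -1.21 for Ifi204, -1.47 for Ifi202b and -0.84 for Ifi27l2a. None of these passed adjustment in edgeR. Ifi202b and Ifi204 belong to a family of close paralogs, so the division of reads between them is uncertain.

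The other 8 named higher genes included further antiviral genes. Ube2l6, which conjugates the ubiquitin-like protein ISG15, had 6.13, 7.79 and 7.19 CPM in LNIO_Ipsil, against 2.88, 2.74 and 2.26 CPM in LNIO_Contra. Zc3hav1, an antiviral RNA-binding protein, had 7.63, 9.68 and 12.9 CPM in LNIO_Ipsil, against 3.45, 3.74 and 4.02 CPM in LNIO_Contra, and Rigi, the cytosolic RNA sensor, had 10.3, 11.01 and 12.5 CPM in LNIO_Ipsil, against 5.24, 6.71 and 4.75 CPM in LNIO_Contra. The L-NIO sides did not overlap in any of these. For Rigi, sham library 3 had 10.8 CPM, above injection-site library 1. For Ube2l6 and Zc3hav1, every sham library was below every injection-site one. Parp9, an interferon-induced ADP-ribosyltransferase family member, had a log2 fold change of 1.72 ± 0.35 (SE), Sp140, a chromatin reader of immune cells, 1.44 ± 0.29 (SE), and Apobec1, an RNA-editing cytidine deaminase, 2.43 ± 0.49 (SE). Gvin1 and Gvin2 encode large interferon-induced GTPases with near-identical sequence. Gvin1 had 12.8, 13.1 and 27.4 CPM in LNIO_Ipsil, against 5.76, 4.49 and 3.901 CPM in LNIO_Contra, and Gvin2 had nearly the same values, so reads of the pair cannot be assigned with certainty.

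In the interferon response list all 18 genes were tested and positive, with a median of 2.19, 13 without overlap, 2 past the paired 15-library threshold and 14 past the paired 6-library one. The side difference was uneven between numbers, with medians of 1.19, 1.99 and 3.03 for 1, 2 and 3. Relative to the sham mean, the list's median log2 level was 0.396, 1.29 and 1.54 in LNIO_Ipsil and -0.564, -0.161 and -0.9696 in LNIO_Contra. The sham libraries themselves lay at -0.303, -0.143 and 0.562. All 3 injection-site libraries were above 0 and all 3 contralateral ones below it. LNIO_Contra against Sham_Ipsil had a list median of -0.92, while 0 of all tested genes passed that comparison in edgeR and 457 (2.72%) had an unadjusted p under 0.05. That comparison and the side comparison share the LNIO_Contra libraries. Oas1a, which makes the messenger of RNase L, had 2.78, 9.34 and 9.72 CPM in LNIO_Ipsil, against 0.461, 0.946 and 0.731 CPM in LNIO_Contra and rose in the paired 15-library fit (edgeR adjusted p = 0.0442). Bst2, which encodes tetherin, had 6.52, 21.1 and 12.99 CPM in LNIO_Ipsil, against 2.25, 2.88 and 1.34 CPM in LNIO_Contra.

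**Figure D4:**
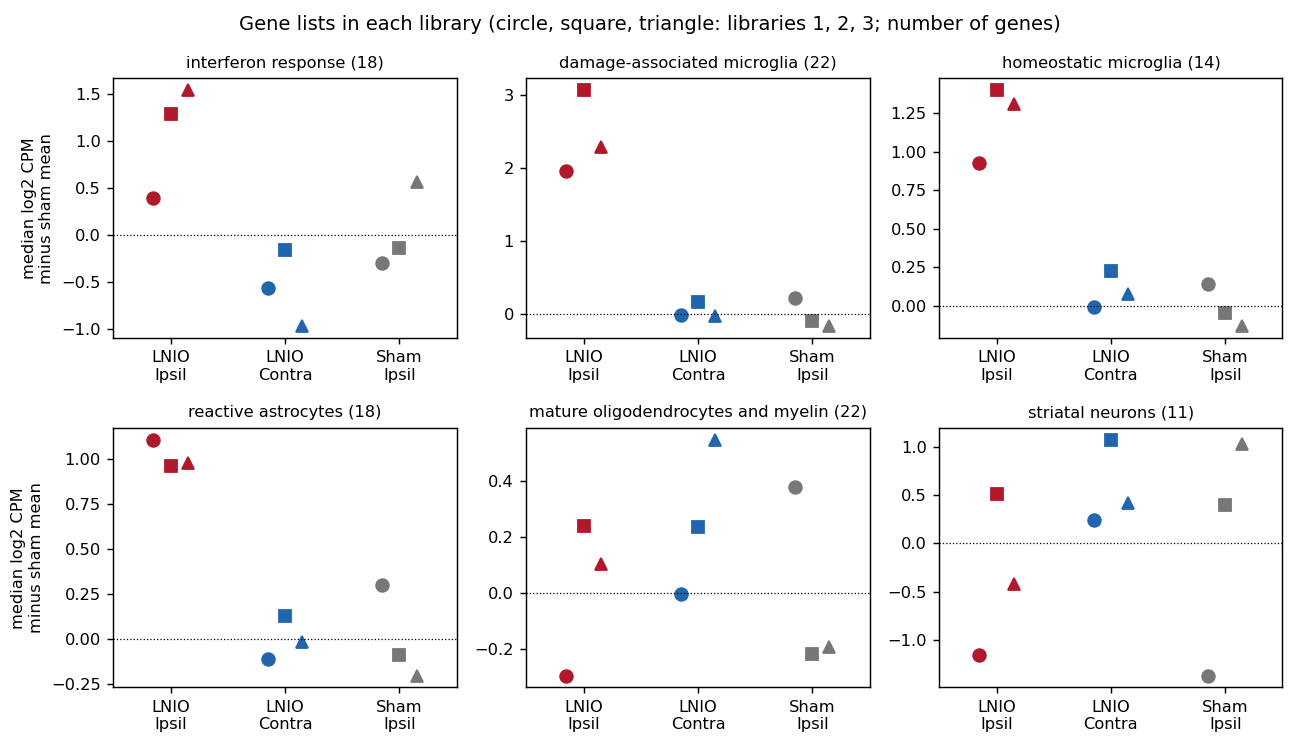
Median log2 CPM relative to the sham mean for 6 gene lists in each library of LNIO_Ipsil (red), LNIO_Contra (blue) and Sham_Ipsil (grey); the vertical axes differ between panels. The injection-site points lie above both other groups for the microglia and reactive astrocyte lists and above LNIO_Contra for the interferon list, where 1 sham library exceeds the lowest injection-site library, and the striatal list spreads widely within LNIO_Ipsil and Sham_Ipsil.

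Promoters of 4 interferon list genes are shown because they carry the short element that this response is known by. The sequences are from RefSeq on GRCm38.p6, which is not the build of the count table, and run 5′ to 3′ in the direction of the gene, upstream of its annotated start. Capitals mark every match to GAAANNGAAA or its reverse complement TTTCNNTTTC, searched on both strands, with overlapping matches joined. The stretches are chr19:34640735-34640854 on the plus strand for Ifit1, chr4:156200827-156200946 on the minus strand for Isg15, chr5:120907526-120907595 on the minus strand for Oas1a and chr8:71537533-71537652 on the minus strand for Bst2.
Ifit1: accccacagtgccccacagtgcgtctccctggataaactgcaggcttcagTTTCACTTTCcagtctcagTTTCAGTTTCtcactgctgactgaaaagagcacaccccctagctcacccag
Isg15: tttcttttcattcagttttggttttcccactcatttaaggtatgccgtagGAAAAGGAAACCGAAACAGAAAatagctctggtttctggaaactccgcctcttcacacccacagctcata
Oas1a: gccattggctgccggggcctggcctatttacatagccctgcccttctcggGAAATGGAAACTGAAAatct
Bst2: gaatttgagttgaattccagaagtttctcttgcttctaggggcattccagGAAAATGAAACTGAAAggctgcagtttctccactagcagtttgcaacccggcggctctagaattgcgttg
In windows of 250 bases before to 50 after the start, 9 of the 13 interferon list genes with a promoter entry held a match (69.2%), against 455 of 12423 tested genes with an entry (3.66%). Of the 20 genes of the paired 15-library fit, 2 of 13 with an entry held one (15.4%), and of the 12 named higher genes 0 of 6. The damage-associated microglia list had 1 of 17 (5.88%). A match describes the letters and shows no binding. Ifit1 and Isg15 are outside the naming rule and were chosen for their promoters after their values were seen. Ifit1, which binds foreign RNA ends, had 2.95, 6.17 and 4.76 CPM in LNIO_Ipsil, against 1.09, 2.51 and 0.6095 CPM in LNIO_Contra, without overlap. Isg15, the ubiquitin-like modifier, had 0.7797, 0.945 and 1.88 CPM in LNIO_Ipsil, against 0.633, 0.946 and 0.366 CPM in LNIO_Contra, and its groups overlapped.

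Antigen presentation genes stood higher as well. All 14 genes of the MHC class I list were tested, with a median of 1.66, 11 without overlap and 7 past the paired 6-library threshold. B2m, the light chain of all class I molecules, had 222, 210.1 and 194 CPM in LNIO_Ipsil, against 71.2, 60.6 and 58.7 CPM in LNIO_Contra. The sides were tight and far apart, and Sham_Ipsil had 81.7, 66.9 and 50.2 CPM. Tap1, which loads peptides, had 4.46, 8.62 and 7.14 CPM in LNIO_Ipsil, against 2.25, 2.79 and 2.74 CPM in LNIO_Contra. Class I heavy chain genes share much sequence, so H2-Q4, at 4.57, 10.8 and 5.16 CPM in LNIO_Ipsil, against 1.61, 2.695 and 1.77 CPM in LNIO_Contra, is uncertain. The 8 class II genes had a median of 1.41, with 3 without overlap. H2-Aa, a class II chain, had 1.89, 4.28 and 2.28 CPM in LNIO_Ipsil, against 0.749, 1.09 and 0.731 CPM in LNIO_Contra. Cd74, the class II invariant chain, had 3.397, 17.6 and 2.08 CPM in LNIO_Ipsil, against 1.04, 2.13 and 1.34 CPM in LNIO_Contra, and injection-site library 2 stood far above the other 5.

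Markers of other immune cells were mixed. Neutrophil genes had 2 of 10 tested, Csf3r and Mmp9, and Csf3r, a receptor that microglia also express, had 58.8, 63.95 and 54.6 CPM in LNIO_Ipsil, against 10.4, 14.6 and 9.63 CPM in LNIO_Contra. The summed level of that list was 60.04, 65.7 and 56.4 CPM in LNIO_Ipsil and 11.4, 15.7 and 10.8 CPM in LNIO_Contra, so Csf3r made up nearly all of it. Of lymphocyte markers, 3 of 13 in the table were tested, with a median log2 difference of 0.05, and the 2 neutrophil genes had one of 1.43. Cd3e, a chain of the T cell receptor complex, was not tested and had 0, 0.167 and 0.0992 CPM in LNIO_Ipsil, against 0, 0.0473 and 0.122 CPM in LNIO_Contra. Icos, a T cell costimulator, had 1.34, 0.556 and 0.595 CPM in LNIO_Ipsil, against 0.173, 0.236 and 0.305 CPM in LNIO_Contra. Of monocyte markers 6 of 9 were tested, with a median of 0.85. Ccr2, the receptor that brings monocytes from blood, had 0.334, 1.67 and 0.942 CPM in LNIO_Ipsil, against 0.345, 0.378 and 0.305 CPM in LNIO_Contra, with overlap between sides. Cd14, a lipopolysaccharide co-receptor, had 7.96, 15.7 and 11.9 CPM in LNIO_Ipsil, against 1.9001, 2.74 and 3.29 CPM in LNIO_Contra, without overlap. Among 10 border macrophage genes the median was 0.89 and 5 did not overlap. Stab1, a scavenger receptor, had 24.5, 32.5 and 20.3 CPM in LNIO_Ipsil, against 10.2, 9.504 and 6.03 CPM in LNIO_Contra, while Mrc1, the mannose receptor, had 4.96, 2.45 and 3.92 CPM in LNIO_Ipsil, against 1.9001, 2.08 and 2.499 CPM in LNIO_Contra, close together between sides in library 2. The part of these cell types in the immune differences was not tested.

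Reactive astrocyte genes stood higher, while general astrocyte genes differed little. The reactive list had a median of 1.07 over 18 genes, 14 without overlap and 12 past the paired 6-library threshold, and the general list 0.12 over 12, 2 and 1. The general astrocyte median was -0.01 without LNIO_Ipsil replicate 2. Gfap, the intermediate filament of astrocytes, had 676, 1334 and 674 CPM in LNIO_Ipsil, against 304, 478 and 461 CPM in LNIO_Contra. Injection-site library 2 was highest, and all 3 exceeded every contralateral library. Cd44, a hyaluronan receptor, had 21.1, 25.4 and 23.4 CPM in LNIO_Ipsil, against 7.25, 7.94 and 6.705 CPM in LNIO_Contra, a narrow spread on each side. Tgm1, a transglutaminase, had 3.34, 9.899 and 4.76 CPM in LNIO_Ipsil, against 0.518, 0.662 and 0.549 CPM in LNIO_Contra. Aqp4, the water channel of astrocyte endfeet and the gene of the general list past that threshold, had 277, 299.5 and 327 CPM in LNIO_Ipsil, against 135, 206 and 194 CPM in LNIO_Contra (edgeR adjusted p = 7.03e-04 in the paired 6-library fit). Slc1a2, the main glutamate transporter, had 3358, 3902 and 3418 CPM in LNIO_Ipsil, against 2636, 3261 and 2915 CPM in LNIO_Contra, without overlap but by a log2 fold change of 0.28 ± 0.19 (SE).

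Vessel genes showed small differences. Endothelial genes had a median of 0.35 over 18 of 20, pericyte and smooth muscle genes 0.25 over 11 of 12, and angiogenesis genes 0.27 over 15 of 16. Without LNIO_Ipsil replicate 1 these medians were 0.12, 0.00125 and 0.11. The pericyte median was also 0.11 and 0.14 without LNIO_Contra replicates 2 and 3, and 0.46 and 0.44 without LNIO_Ipsil replicate 3 and LNIO_Contra replicate 1, and the angiogenesis median was 0.18 and 0.49 without LNIO_Contra replicates 2 and 1. Icam1, the adhesion molecule that leukocytes bind, had 4.01, 5.73 and 5.21 CPM in LNIO_Ipsil, against 2.07, 1.65 and 1.28 CPM in LNIO_Contra and passed the paired 6-library fit (edgeR adjusted p = 0.00262). Cldn5, a tight junction protein, had 18.9, 12.8 and 10.6 CPM in LNIO_Ipsil, against 18.2, 9.46 and 15.8 CPM in LNIO_Contra, with overlap and no common direction between numbers. Fibroblast genes had a median of 1.04 over 11, 8 without overlap. Col1a2, a chain of type I collagen, had 16.3, 11.01 and 9.32 CPM in LNIO_Ipsil, against 5.47, 6.29 and 6.03 CPM in LNIO_Contra. Col1a1, the other chain, had 11.4, 9.899 and 7.74 CPM in LNIO_Ipsil, against 6.28, 4.73 and 4.88 CPM in LNIO_Contra. Sham_Ipsil had 6.22, 9.196 and 15.7 CPM for Col1a2 and 4.24, 4.94 and 10.4 CPM for Col1a1. Its highest library lay within the injection-site range for both. Relative to the sham mean, the fibroblast list's median log2 level was 0.75, 0.19 and 0.19 in LNIO_Ipsil and -0.81, -0.51 and -0.67 in LNIO_Contra. The sham libraries lay at -0.28, -0.28 and 0.70, above LNIO_Contra and overlapping LNIO_Ipsil. LNIO_Contra against Sham_Ipsil had a list median of -0.59. The matrix and scar list had a median of 0.38 over 24, with Sparc, a collagen-binding protein, at 300.1, 400.4 and 304 CPM in LNIO_Ipsil, against 162, 136 and 151 CPM in LNIO_Contra.

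The list median for the pathway that L-NIO targets was near 0. Nitric oxide genes had a median of -0.09 over 12 of 14, and 0 passed either paired fit. The paired 6-library fit called 3.56% of all tested genes higher and 0.518% lower, so 0 in a list this small says little. The same limit applies to the 0 counts given below for the proliferation, myelin, cholesterol and neuron lists. Nos3, which encodes endothelial nitric oxide synthase, had 7.69, 3.003 and 4.66 CPM in LNIO_Ipsil, against 5.24, 2.695 and 3.35 CPM in LNIO_Contra, with library 1 the highest on both sides. Gch1, which makes the synthase cofactor tetrahydrobiopterin, had 1.95, 1.78 and 1.14 CPM in LNIO_Ipsil, against 0.749, 0.5201 and 0.549 CPM in LNIO_Contra and did not overlap. Hypoxia and glycolysis genes had a median of -0.04 over 24, and Hk2, a hexokinase, was the exception that passed the paired 6-library fit, at 11.7, 19.96 and 15.1 CPM in LNIO_Ipsil, against 3.92, 4.54 and 2.86 CPM in LNIO_Contra (edgeR adjusted p = 6.32e-06). Hmox1, the haem-degrading enzyme, had 7.18, 10.5 and 8.78 CPM in LNIO_Ipsil, against 4.95, 4.63 and 4.14 CPM in LNIO_Contra. Atf3, a stress-induced transcription factor, had 3.899, 6.95 and 3.03 CPM in LNIO_Ipsil, against 0.345, 0.378 and 0.183 CPM in LNIO_Contra, while the rest of its list of 12 integrated stress response genes left the median at -0.07. Proliferation genes had a median of 0.23 over 24 and 0 passed either paired fit, with Mki67, a marker of cycling cells, at 15.3, 21.8 and 28.8 CPM in LNIO_Ipsil, against 13.9, 15.8 and 13.3 CPM in LNIO_Contra. The proliferation median was 0.07 without LNIO_Ipsil replicate 3, 0.41 without LNIO_Ipsil replicate 1 and 0.40 without LNIO_Contra replicate 3.

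**Figure D5:**
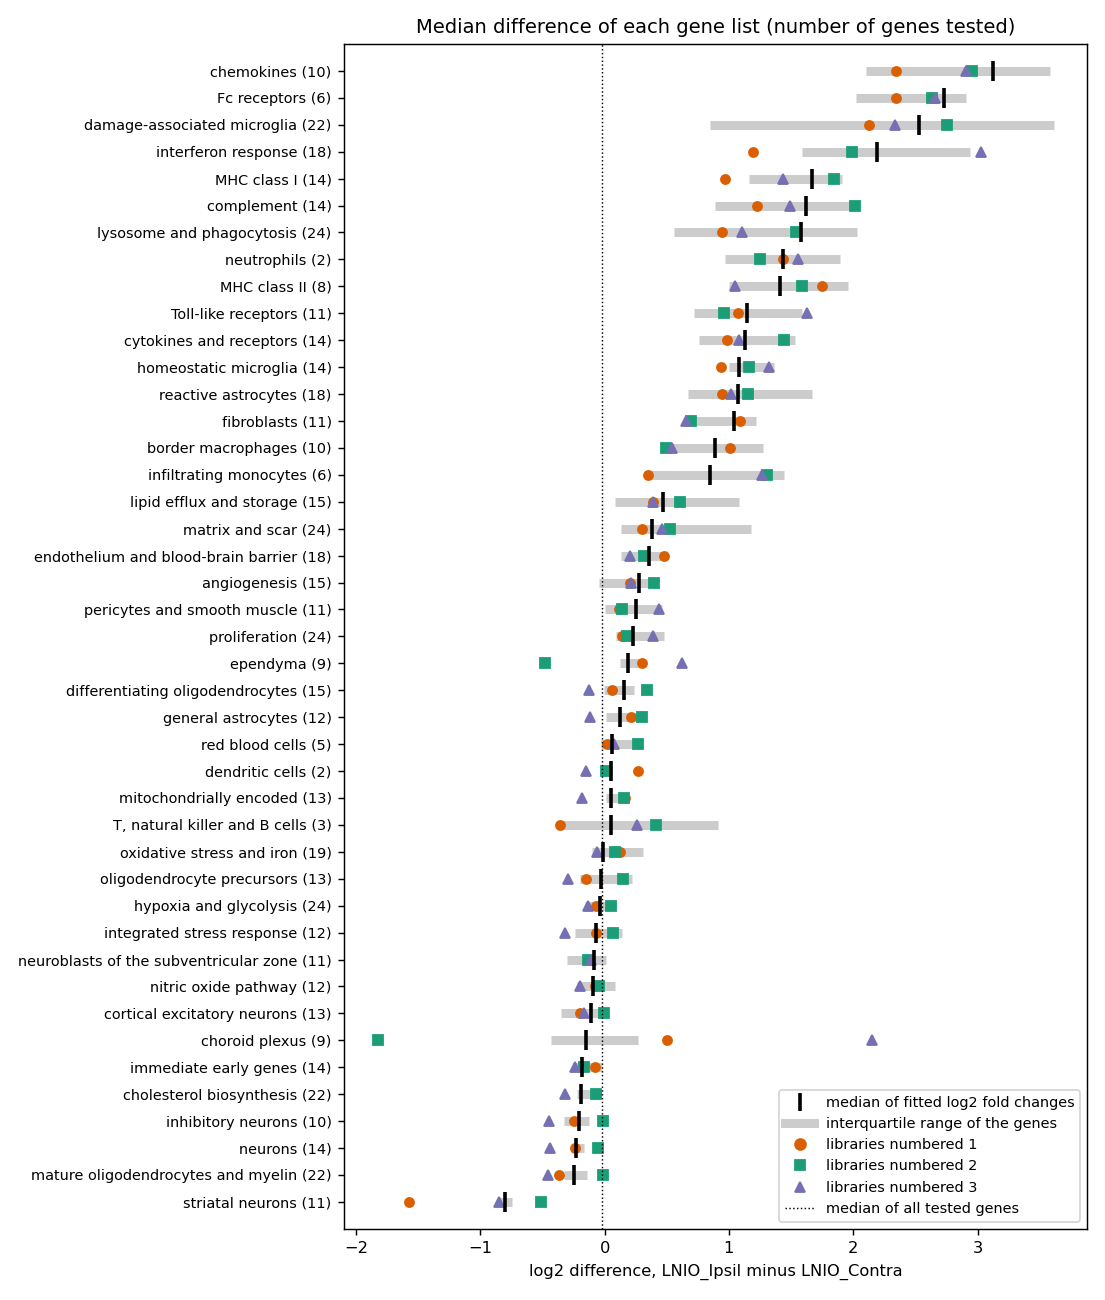
For each of 43 gene lists, the black tick is the median fitted log2 difference of LNIO_Ipsil minus LNIO_Contra, the grey bar the interquartile range of the genes, and the coloured points the medians within libraries numbered 1, 2 and 3; the dotted line is the median of all tested genes. Chemokines stand at the top (3.13) and striatal neurons at the bottom (-0.80), and choroid plexus has points on both sides of 0.

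Oligodendrocyte lineage genes were near the level of the other side. Of 22 mature oligodendrocyte and myelin genes, 21 had negative differences, but the median was -0.25, 0 passed either the paired 15-library or the paired 6-library fit and 1 did not overlap. By number the medians were -0.36, -0.02 and -0.45, so library 2 showed almost none, and without LNIO_Ipsil replicate 1 the list's median was -0.07. It was -0.11 without LNIO_Contra replicate 3 and -0.41 without LNIO_Ipsil replicate 2. Relative to the sham mean, the list's median log2 level was -0.29, 0.24 and 0.10 in LNIO_Ipsil and -0.01, 0.24 and 0.54 in LNIO_Contra. The sham libraries lay at 0.38, -0.22 and -0.19, so the groups overlapped. LNIO_Contra against Sham_Ipsil had a list median of 0.26, so the contralateral side stood above sham. Mog, a surface protein of myelin, had 205, 284 and 279 CPM in LNIO_Ipsil, against 232, 296 and 350.2 CPM in LNIO_Contra, with overlap. Fa2h, which makes hydroxylated myelin lipids, had 93.5, 143 and 113 CPM in LNIO_Ipsil, against 140.2, 148 and 184 CPM in LNIO_Contra. Precursor genes had a median of -0.03 over 13 and differentiating oligodendrocyte genes 0.15 over 15. Pdgfra, the growth factor receptor of precursors, had 59.3, 71.8 and 63.1 CPM in LNIO_Ipsil, against 53.4, 76.03 and 68.999 CPM in LNIO_Contra. Gpr17, a receptor of committed precursors, had 83.3, 170.1 and 101 CPM in LNIO_Ipsil, against 86.8, 121 and 111 CPM in LNIO_Contra. Cholesterol synthesis genes were negative in 21 of 22 with a median of -0.19 (-0.10 without LNIO_Contra replicate 3), and 0 passed either paired fit. Hmgcs1, an early enzyme of that pathway, had 246, 424 and 238 CPM in LNIO_Ipsil, against 276, 437 and 351 CPM in LNIO_Contra, with library 2 the highest on both sides.

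Neuronal genes stood slightly lower at the injection site. Of 14 pan-neuronal genes 13 were negative, with a median of -0.23, 6 without overlap and 0 past either paired fit. Snap25, a synaptic fusion protein, had 1959, 1751 and 1623 CPM in LNIO_Ipsil, against 2188, 1779 and 2257 CPM in LNIO_Contra. Nefl, a neurofilament of axons, had 226, 226 and 186 CPM in LNIO_Ipsil, against 266, 203 and 244 CPM in LNIO_Contra, with overlap. Genes of striatal projection neurons, which do not belong to the corpus callosum, had the lowest median of the lists, -0.80. All 11 were negative, with medians of -1.57, -0.51 and -0.85 for numbers 1, 2 and 3, but 2 of 11 did not overlap and 4 passed the paired 6-library fit. The striatal median was -0.47 without LNIO_Ipsil replicate 1, -0.52 without LNIO_Contra replicate 2 and -1.42 without LNIO_Ipsil replicate 2. Drd1, a dopamine receptor, had 23.7, 65.01 and 40.2 CPM in LNIO_Ipsil, against 50.96, 106 and 72.5 CPM in LNIO_Contra, lower at the injection site within each number although the groups overlapped (edgeR adjusted p = 1.04e-04 in the paired 6-library fit). The summed level of the list was 627, 2168 and 1089 CPM in LNIO_Ipsil, 1795, 3006 and 1806 CPM in LNIO_Contra and 560.2, 1997 and 2989 CPM in Sham_Ipsil. The range of that sum over the 3 sham libraries was about as wide as over the 6 L-NIO libraries.

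Choroid plexus genes had no common direction between numbers. Their medians were 0.50, -1.82 and 2.15 for numbers 1, 2 and 3. Their summed level was 716, 776 and 2028 CPM in LNIO_Ipsil and 507, 2759 and 837 CPM in LNIO_Contra, with the high library on each side carrying a different number. Folr1, a folate receptor of that epithelium, had 1.28, 2.28 and 7.54 CPM in LNIO_Ipsil, against 1.04, 12.9 and 1.04 CPM in LNIO_Contra. Other lists stood near 0: cortical excitatory neurons had a median of -0.11, inhibitory neurons -0.21, immediate early genes -0.18, neuroblasts of the subventricular zone -0.08, ependyma 0.19, red blood cells 0.06, dendritic cells 0.05, oxidative stress and iron -0.01 and mitochondrially encoded genes 0.05. The part that neighbouring tissue in the dissected samples had in other differences was not tested.

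The 12 genes named as lower had log2 fold changes of -0.29 to -1.43 and none passed either 15-library edgeR fit. DESeq2 called 1 of them, Scg2 (DESeq2 adjusted p = 0.0343), and the paired 6-library fit called 6, Stk26, Or2y1g, Hs6st2, Slc35f3, Scg2 and Elmod1. Scg2, a neuropeptide precursor of secretory granules, had 121, 111 and 128 CPM in LNIO_Ipsil, against 153, 154 and 167 CPM in LNIO_Contra. Nptx2, a pentraxin of excitatory synapses, had 26.1, 24.4 and 23.2 CPM in LNIO_Ipsil, against 31.96, 30.4 and 34.4 CPM in LNIO_Contra. Plk2, an activity-induced kinase of neurons, had 127, 124 and 128 CPM in LNIO_Ipsil, against 172, 159.6 and 146 CPM in LNIO_Contra. All 3 separated the sides without overlap, with the libraries of each side close together. Stk26, a kinase of the germinal centre family, had 10.5, 13.4 and 12.4 CPM in LNIO_Ipsil, against 21.5, 21.8 and 18.8 CPM in LNIO_Contra and was the gene called lower by the unpaired 6-library fit (edgeR adjusted p = 0.0193). Hs6st2 and Hs3st2 modify heparan sulfate chains. Hs6st2 had 32.9, 36.5 and 34.8 CPM in LNIO_Ipsil, against 42.2, 50.2 and 46.8 CPM in LNIO_Contra, and Hs3st2 had 28.2, 24.02 and 19.9 CPM in LNIO_Ipsil, against 34.5, 29.7 and 36.6 CPM in LNIO_Contra. Both were lower at the injection site in each library, with an edgeR adjusted p of 0.0357 for Hs6st2 and 0.0521 for Hs3st2 in the paired 6-library fit. The others, Rundc3b, Elmod1, Klhl2, Alg2, Slc35f3 and Or2y1g, lay between -0.29 and -1.43. Sham_Ipsil had 18.5, 25.96 and 22.3 CPM for Hs3st2 and 10.2, 15.4 and 20.4 CPM for Stk26. These levels overlapped the injection site, as the sham levels of Nptx2, Slc35f3 and Or2y1g did. For Scg2, Plk2, Hs6st2, Rundc3b, Elmod1, Klhl2 and Alg2 every sham library was above every injection-site one.

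The test of whether the L-NIO side difference differed from that of LPC gave 0 genes in the 15-library edgeR fit and 171 (1.02% of tested genes) at an unadjusted p under 0.05, with 0 also under the block and by DESeq2. For the damage-associated microglia list the median side difference was 2.53 for L-NIO and 3.09 for LPC. For interferon response it was 2.19 for L-NIO and 1.23 for LPC, and for homeostatic microglia 1.08 and 1.60. The interferon list's median log2 levels relative to the sham mean overlapped between the injection sites. They were 0.396, 1.29 and 1.54 in LNIO_Ipsil and 1.78, 0.940 and 1.04 in LPC_Ipsil. On the contralateral sides they were -0.564, -0.161 and -0.970 in LNIO_Contra and -0.0702, 0.565 and -0.312 in LPC_Contra. Cxcl10 had a difference of side differences of 2.19 ± 0.93 (SE), at an unadjusted edgeR p of 0.033 that did not hold after adjustment. A p that misses the threshold does not show that the sides of both models differed alike, and the LPC values rest on LPC_Ipsil replicate 3 and LPC_Contra replicate 2, the libraries that stood apart.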

How the data were processed

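RNA of mouse corpus callosum was sequenced by the submitters as paired-end libraries after ribosomal RNA depletion and poly(A) purification, per the labels' protocols. Read counts per gene symbol were deposited as whole numbers. FPKM values, which the authors scaled by gene length and depth, were deposited as a second table. Per the submitters' processing notes, HISAT2 2.2.1, R 4.4.2 and GRCm39 were used. Not given in the sources used here are the counting program, the annotation and the strand setting, and overlapping, antisense and near-identical genes are therefore uncertain. Among the symbols, 74 entries repeat a symbol.

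The test was edgeR 4.0.16 under R 4.3.3, with TMM scaling, filterByExpr by group (minimum count 10, minimum total 15), robust quasi-likelihood test, Benjamini-Hochberg adjustment over all 16795 tested genes, threshold 0.05. A single unblocked model covered the 15 libraries and gave each group its own mean. Dividing a log2 fold change by the root of its F statistic gave the standard error. A gene passed the filter on the number of libraries that carried it, whichever groups they came from. Alternatives were other scaling and filters, DESeq2 1.42.0, limma 3.58.1 on log2 FPKM with pseudocounts of 0.1 and 1, the 6 L-NIO or 9 L-NIO and sham libraries alone, library number as a block, and leaving out each library. Equal numbers were taken as pairs because the correlations of their deviations, 0.60, 0.36 and 0.25, were all above 0.1. LNIO_Ipsil library 3 with LNIO_Contra library 2 had 0.195, also above 0.1, so the rule does not single out equal numbers for library 3. The other unequal numbers had negative correlations. The labels do not say that a number is 1 mouse. In the LPC groups the correlations of equal numbers were -0.04, 0.16 and 0.33, so they were not all above 0.1. Pairs of LPC libraries in the blocked fits are therefore not backed by these correlations. The test was checked on simulated counts. These had the same dispersion for every gene and no libraries that stood apart or deviated in pairs, so the check does not cover those features. Replicate libraries of these groups differed by a chi-square of 22.9 to 47.7 per degree of freedom, so none looked deposited more than once.

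Named genes are the 12 largest called changes in each direction whose sides do not overlap and whose average log2 CPM is 1 or more, filled by smallest unadjusted p where fewer were called, up to 4 genes per list by p, and a fixed set of markers. Predicted genes were left out. The members and the 43 lists were chosen with earlier results of these data known. Of the listed genes 4 were not in the table, and 14 were found under another symbol. Python 3.11.15 and matplotlib 3.10.9 drew the figures.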

Additional observations from a re-analysis of the deposited data

How the results depend on the processing

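In the 15-library edgeR fit, 0 genes were called under both other scalings, both other filters and limma on log2 FPKM, where 869 to 1198 genes had an unadjusted p under 0.05. Leaving out 1 of the 6 L-NIO libraries gave 0 to 1 called genes and 785 to 1211 at an unadjusted p under 0.05. The number called was 20 with the replicate block, 180 by DESeq2, 355 in the 6 L-NIO libraries and 393 in the 9 L-NIO and sham libraries. In fits chosen after seeing the data, it was 394 without LPC_Ipsil replicate 3 and LPC_Contra replicate 2, 434 with the block added to that fit (1615 at an unadjusted p under 0.05) and 427 with the block in 9 libraries (1579). The block in the 6 libraries called 685 (2156), and leaving out a pair there gave 522, 834 and 878 (1276, 2733 and 2232) without pairs 1, 2 and 3. Leaving out a pair from the blocked 15-library fit gave 0, with 685 to 1004 at an unadjusted p under 0.05. In the 6 libraries without a block, leaving out LNIO_Ipsil replicates 1, 2 and 3 in turn gave 419, 226 and 249 called genes, and leaving out LNIO_Contra replicates 1, 2 and 3 gave 248, 273 and 139 (1104 to 1596 at an unadjusted p under 0.05). Why the fits differ was not tested. The difference of side differences had 0 calls under each alternative run.

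Of 201 named genes, 18 changed sign under at least 1 alternative without being called. Apart from these, 1 value was past the threshold with the sign opposite to the main fit. Kcne2, a choroid plexus gene, had -0.57 in the main fit and changed to 1.67 in the blocked 6-library fit without replicate 2. The median kept its sign under every alternative for 31 of 43 lists, and the striatal median ran from -1.42 without LNIO_Ipsil replicate 2 to -0.47 without LNIO_Ipsil replicate 1. With 3 libraries a side, genes near 1 CPM or under rest on few counts, where only large differences can pass.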
